A study of Mus musculus with 2 samples.

Results

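The Gimap genes encode GTPases of the immunity-associated protein family, and this account follows all 8 members listed in blood mononuclear cells of mice with and without mutations of mevalonate kinase. Members were taken by gene symbol from the list of 27998 genes: Gimap1, Gimap3, Gimap4, Gimap5, Gimap6, Gimap7, Gimap8 and Gimap9. The rule used no measured value, although the members were chosen with earlier results of these data known. No other Gimap symbol was listed. Blood of 3 female C57Bl/6 mice aged 10 weeks was pooled for each genotype. The mutant genotype was MvkV377I/del91, a V377I allele paired with a del91 allele, and the control genotype was wildtype. Mononuclear cells were separated on Ficoll, red cells were lysed, and cells negative for the dead-cell stain DAPI and the red-cell antigen Ter119 were sorted onto the 10x Chromium system, with 2000 cells targeted. Each genotype gave 1 library. Genotype, mouse pool and library therefore cannot be told apart, no test between genotypes is possible, and all intervals below are 95% intervals for counting error only.

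GIMAP proteins bind GTP and sit on the membranes of organelles such as lysosomes, the Golgi apparatus and mitochondria. They are known chiefly from lymphocytes, where loss of Gimap5 shortens the life of naive T cells and leads to lymphopenia in rats and mice. Mevalonate kinase acts in the pathway that makes sterols and isoprenoids. The study's labels state no link between Mvk and the Gimap genes.

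Values are UMIs, unique molecular identifiers that each mark 1 captured RNA molecule. Totals were 14513059 UMIs (mutant) and 15385199 (wildtype). The cell filter left 4190 and 5225 cells, with medians of 1968 and 2036 UMIs, and 28 cell barcodes occurred in both libraries. Cells were named by the UMIs of marker genes that include no Gimap gene. This gave 1845 mutant and 2179 wildtype naive-like T cells, 157 and 255 memory-like T cells, 1268 and 1117 B cells, 191 and 875 NK cells, and 139 and 117 monocytes. T cells between naive and memory (252 and 326) and cells with no clear type (338 and 356) were kept apart. Since these markers chose the cells, their levels are no check of the names. Levels are given as CPM, the UMIs of a gene per 1000000 UMIs of the cells summed. The libraries stood apart in several markers of other cells, in the share of NK cells given below and in the clustering. Erythroid genes summed to 6410 CPM in mutant and 682 in wildtype naive-like T cells, and were higher in the mutant library in all 5 types. The 6 NK markers summed to 20.1 and 69.2 CPM in the same cells, and the 5 platelet markers to 62.6 and 13.4. Clustering put naive-like T cells rich in Cd4 into 2 clusters of mostly 1 library each (1075 mutant with 154 wildtype cells, and 76 with 1077), while naive-like T cells rich in Cd8 shared 1 cluster (648 and 853). The part of these differences in the Gimap values was not tested. Mvk itself gave 47 (mutant) and 65 (wildtype) UMIs, which count its RNA and do not read the alleles, so they do not check the labels. The mutant-to-wildtype ratio was 0.914 (0.614 to 1.35), and a difference was not detectable at this depth.

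The 8 genes lie together on chromosome 6 between 48647234 and 48770851 of GRCm38 (mm10), a stretch of 124 kb. Gimap8, Gimap9, Gimap4, Gimap7, Gimap1 and Gimap5 are on the plus strand, and Gimap6 and Gimap3 are on the minus strand. The only other protein-coding gene annotated inside the stretch is Gm28053, a read-through gene that overlaps Gimap7, Gimap1 and Gimap5 on the same strand. Gm28053 had 6 mutant and 10 wildtype UMIs in all cells. Within the last 500 bases of the transcripts, stretches of the 98-base read length were shared with another gene in 1.48% of cases for Gimap1 and in 0% for the other members, so the 3' ends that were counted can be told apart. The antisense gene Gimap1os overlaps Gimap1.

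Start regions of 4 members are shown, those on which the results below turn: Gimap7 and Gimap4, which were higher in memory-like T cells, Gimap5, which was higher in NK cells, and Gimap6, which gave the most UMIs in naive-like T cells. They are the 250 bases before the start site in RefSeq (GRCm38.p6), 5' to 3' on the gene's own strand. Capitals mark matches on either strand to the core letters of lymphocyte regulators: AGGAAG for ETS factors, TGTGGT for RUNX, CTTTGA for TCF and LEF, and CCACCC for KLF.
Gimap7, chr6:48718371-48718620, plus strand: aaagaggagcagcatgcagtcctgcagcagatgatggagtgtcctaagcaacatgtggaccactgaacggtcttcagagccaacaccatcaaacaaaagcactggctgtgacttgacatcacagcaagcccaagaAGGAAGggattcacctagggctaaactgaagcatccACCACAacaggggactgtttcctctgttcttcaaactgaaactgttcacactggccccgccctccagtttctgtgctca
Gimap4, chr6:48684328-48684577, plus strand: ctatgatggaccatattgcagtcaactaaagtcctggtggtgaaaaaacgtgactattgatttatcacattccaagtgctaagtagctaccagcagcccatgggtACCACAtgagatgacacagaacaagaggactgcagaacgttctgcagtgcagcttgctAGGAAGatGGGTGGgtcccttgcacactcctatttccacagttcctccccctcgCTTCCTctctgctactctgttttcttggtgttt
Gimap5, chr6:48745947-48746196, plus strand: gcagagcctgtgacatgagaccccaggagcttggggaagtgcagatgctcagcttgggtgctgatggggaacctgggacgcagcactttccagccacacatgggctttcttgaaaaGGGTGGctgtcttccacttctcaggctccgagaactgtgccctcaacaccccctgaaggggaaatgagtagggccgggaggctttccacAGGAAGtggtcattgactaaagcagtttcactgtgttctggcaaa
Gimap6, chr6:48708245-48708494, minus strand: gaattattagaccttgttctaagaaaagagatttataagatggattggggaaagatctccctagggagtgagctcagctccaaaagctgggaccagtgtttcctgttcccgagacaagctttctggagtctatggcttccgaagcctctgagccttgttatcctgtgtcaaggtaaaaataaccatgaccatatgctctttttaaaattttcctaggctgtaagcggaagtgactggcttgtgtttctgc
Gimap8 has 2 overlapping windows. Of the 9 windows for the 8 genes, 7 held the ETS letters, against 29.5% of 32851 mouse windows of the same length. The RUNX letters were in 3 Gimap windows and 14.0% of all windows. The KLF letters were in 5 and in 28.1%. The TCF and LEF letters were in 0 Gimap windows and in 13.8% of all. The Gimap6 window held no match to these exact letters. It does hold cggaag, which differs from the ETS letters in the first base, and such near matches were not counted. A match describes letters and does not locate a bound site.

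Summed over the 8 genes, memory-like T cells had the highest level, with 3106 CPM (2938 to 3282) for the mutant and 3104 (2975 to 3237) for the wildtype library. NK cells followed with 2549 (2400 to 2706) and 2680 (2602 to 2761). Naive-like T cells had 2246 (2200 to 2293) and 2187 (2147 to 2228), and B cells 1664 (1615 to 1714) and 1760 (1706 to 1816). Monocytes had 245 (201 to 295) and 294 (238 to 358). The order was the same in both libraries, and neighbouring types did not overlap in their counting intervals. Memory-like T cells were a mixture by the Cd4 and Cd8 rules given below. Their Cd8 cells (50 and 73) had 2599 and 2655 CPM, close to NK cells. The Cd4 cells (15 and 38) had 3283 and 3402, and cells that met neither rule (92 and 144) had 3432 and 3315. The 6 NK markers summed to 215 and 294 CPM in memory-like T cells, and their part was not tested. The place of NK cells depends on what the counts are divided by. Ribosomal protein genes gave 38.6% and 40.2% of the UMIs of naive-like T cells but 19.96% and 17.5% of those of NK cells. When ribosomal, mitochondrial and haemoglobin genes were left out of the total, naive-like T cells had 3895 and 3871 CPM and NK cells 3289 and 3327, so these types changed places. This scaling raised every naive-to-NK ratio by 0.43 (mutant) and 0.51 (wildtype) on the log2 scale, the naive-to-memory ratios by 0.21 and 0.25, and the naive-to-B ratios by 0.23 and 0.25. Memory-like T cells stayed highest (4662 and 4619), and B cells stayed lowest among lymphocytes (2461 and 2614).

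**Figure D1:**
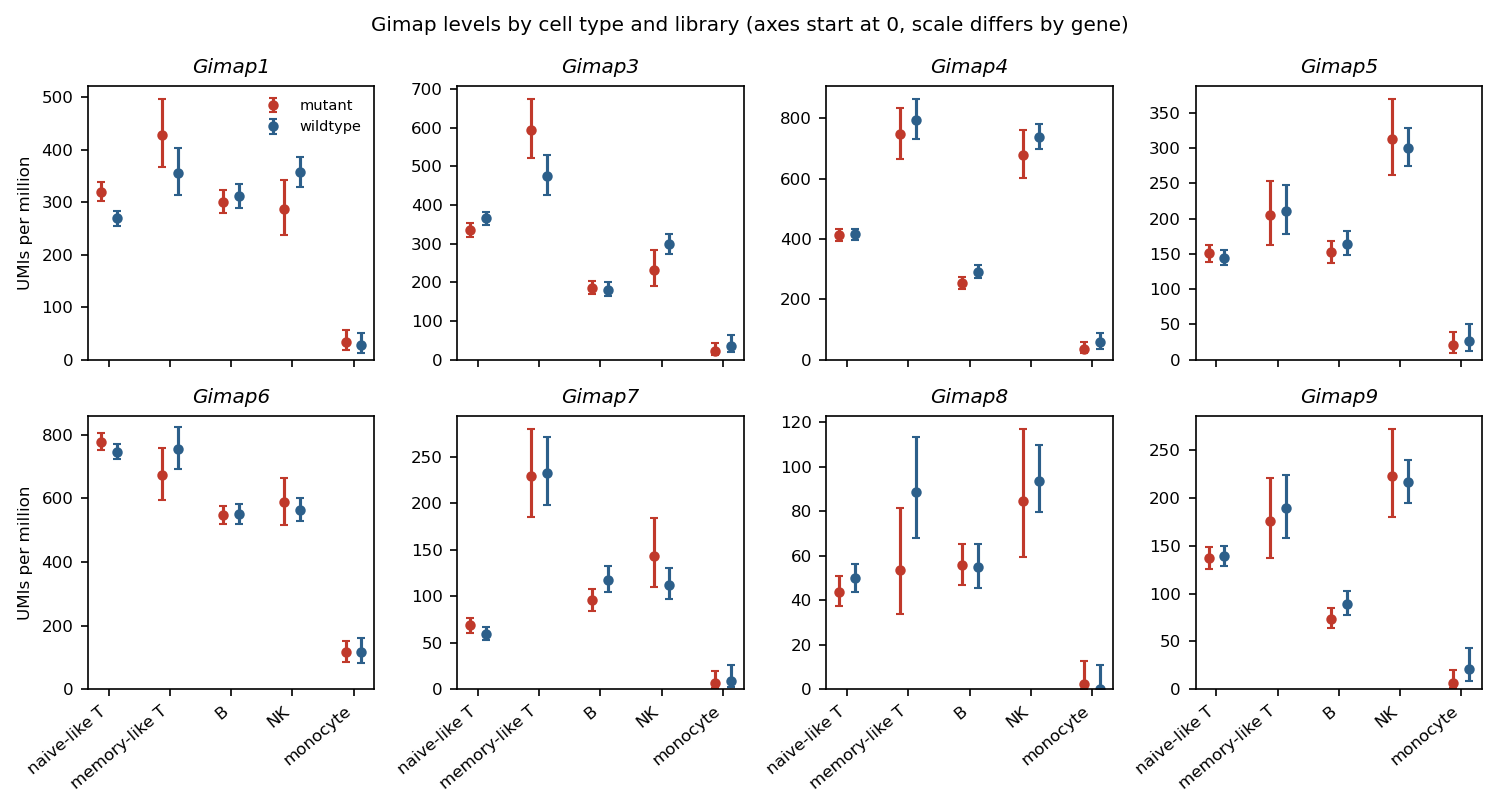
CPM of each Gimap gene (vertical axes, from 0, each gene on its own scale) in 5 cell types, for the mutant (red) and wildtype (blue) library, as points with exact Poisson 95% intervals. All 8 genes are lowest in monocytes, Gimap7 peaks in memory-like T cells (229 and 232) and Gimap5 in NK cells (312 and 301).

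Gimap6, a partner of the autophagy protein GABARAPL2, gave the most UMIs of the family in naive-like T and B cells. Each counted molecule gives 1 UMI from its 3' end, so UMIs of different genes were not divided by length, although capture can differ between genes. Gimap6 made up 34.6% (mutant) and 34.1% (wildtype) of Gimap UMIs in naive-like T cells and 32.8% and 31.3% in B cells. Its level was 778 and 745 CPM in naive-like T, 673 and 756 in memory-like T, 547 and 550 in B, and 587 and 564 in NK cells. Between T cell states Gimap6 differed little. Naive-like T cells stood 1.16-fold (1.02 to 1.31) above memory-like T cells in the mutant library and at 0.986 (0.900 to 1.08) in the wildtype library. Without ribosomal, mitochondrial and haemoglobin genes these ratios were 1.34 and 1.17, the direction turning in the wildtype library.

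Gimap4, a GIMAP protein that has been linked to the speed of T cell death, gave the most Gimap UMIs in memory-like T and NK cells, although its intervals and those of Gimap6 overlapped in memory-like T cells of both libraries and in mutant NK cells. It had 746 (665 to 835) and 795 (731 to 864) CPM in memory-like T cells, against 412 (393 to 433) and 415 (398 to 433) in naive-like T cells. Memory-like T cells were 1.81-fold (1.60 to 2.05) and 1.92-fold (1.74 to 2.105) above naive-like T cells. NK cells, with 679 and 738 CPM, were 2.68-fold (2.32 to 3.08) and 2.53-fold (2.30 to 2.79) above B cells, which had 254 and 291. The 2 libraries gave the same order of types, memory-like T, NK, naive-like T, B and monocyte, although the intervals of memory-like T and NK cells overlapped. Cd8 memory-like T cells had 591 and 653 CPM of Gimap4, below the NK values.

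Gimap7, a GTPase known to activate another family member by pairing with it, showed the widest gap between T cell states. It had 229 (185 to 280) and 232 (198 to 271) CPM in memory-like T cells and only 68.5 (60.7 to 77.1) and 59.3 (52.9 to 66.4) in naive-like T cells. That is 3.35-fold (2.62 to 4.24) and 3.92-fold (3.22 to 4.75) more in memory-like T cells. Naive-like T cells were also the lowest lymphocytes for Gimap7, below B cells (95.6 and 118) and NK cells (143 and 113). Among cells with Cd8 UMIs, memory-like cells had 2.53-fold (1.59 to 3.88) and 3.09-fold (2.17 to 4.34) more Gimap7 than naive-like cells, so the gap was also there within the Cd8 cells. Without ribosomal, mitochondrial and haemoglobin genes, naive-like T cells stood at 0.345 and 0.304 of memory-like T cells for Gimap7 and at 0.639 and 0.621 for Gimap4.

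Gimap5, the lysosomal member that T cells need for survival, was highest in NK cells. NK cells had 312 (262 to 370) and 301 (275 to 329) CPM, 2.07-fold (1.71 to 2.51) and 2.09-fold (1.86 to 2.34) above naive-like T cells with 151 (139 to 163) and 144 (134 to 155). Memory-like T cells (205 and 211) lay between them, and B cells (152 and 164) were close to naive-like T cells. Gimap8, a member with several GTP-binding domains in 1 protein, gave the fewest UMIs in each of the 5 types. It had 84.6 and 93.7 CPM in NK cells, 43.7 and 49.8 in naive-like T cells, and 55.6 and 54.7 in B cells. Gimap8 in NK cells was 1.94-fold (1.31 to 2.78) and 1.88-fold (1.53 to 2.31) above naive-like T cells. With the other scaling, naive-like T cells stood at 0.648 and 0.683 of NK cells for Gimap5 and at 0.694 (0.483 to 1.02) and 0.758 (0.618 to 0.932) for Gimap8.

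Gimap3, a close relative of Gimap5 that is also tied to T cell survival, was higher in both T cell states than in B cells. It had 595 and 475 CPM in memory-like T, 336 and 365 in naive-like T, 233 and 298 in NK, and 185 and 181 in B cells. Naive-like T cells were 1.81-fold (1.63 to 2.01) and 2.01-fold (1.81 to 2.25) above B cells, and 2.12-fold and 2.40-fold above them without ribosomal, mitochondrial and haemoglobin genes. Both T cell states were above NK cells in both libraries. Gimap9 had 223 and 217 in NK, 176 and 190 in memory-like T, 137 and 139 in naive-like T, and 73.9 and 89.5 in B cells, with overlapping intervals between NK and memory-like T cells. Naive-like T cells exceeded B cells in Gimap9 by 1.86-fold (1.57 to 2.20) and 1.56-fold (1.33 to 1.83). With the other scaling these Gimap9 ratios were 2.18 and 1.86. The same scaling put naive-like T cells at 0.826 (0.664 to 1.04) and 0.917 (0.807 to 1.04) of NK cells for Gimap9. Against memory-like T cells it gave 0.903 (0.706 to 1.17) and 0.874 (0.725 to 1.06). The NK and memory-like T intervals all held 1, so that part of the Gimap9 order depends on the total. Gimap1, which mature B and T cells both need, was nearly level between naive-like T cells (320 and 269) and B cells (301 and 312) with all genes in the total. For Gimap1 the order of these types differed between the libraries, with naive-to-B ratios of 1.06 (0.973 to 1.16) and 0.863 (0.788 to 0.947). When ribosomal, mitochondrial and haemoglobin genes were left out, the ratios were 1.25 (1.14 to 1.37) and 1.03 (0.939 to 1.13). The mutant interval then left out 1.

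Against memory-like T cells, 0 of the 8 members were at least 1.5-fold higher in naive-like T cells in both libraries, where 3.31% of 6168 measured genes were, and 2 (Gimap4 and Gimap7) were at least 1.5-fold lower, where 9.79% were. A gene counted as measured with at least 50 UMIs in the sums compared. Against B cells, 0 of 8 were at least 2-fold higher in both libraries, with 5.32% of 7347 measured genes past that fold. Against NK cells, 0 of 8 were at least 2-fold higher (5.85% of 6256 genes) and 1, Gimap5, was at least 2-fold lower (8.28%). Against monocytes, 8 of 8 were at least 2-fold higher, compared with 11.7% of 6265 genes. With the total that leaves out ribosomal, mitochondrial and haemoglobin genes, an alternative for these counts added after the data were seen, Gimap5 was no longer at least 2-fold lower than in NK cells (0 of 8, where 4.25% of 6138 genes were). Gimap3 was then at least 2-fold higher than in B cells (1 of 8, where 7.13% of 7228 genes were). Gimap4 and Gimap7 were still at least 1.5-fold lower than in memory-like T cells (2 of 8, where 4.98% of 6050 genes were), and 8 of 8 were at least 2-fold higher than in monocytes.

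**Figure D2:**
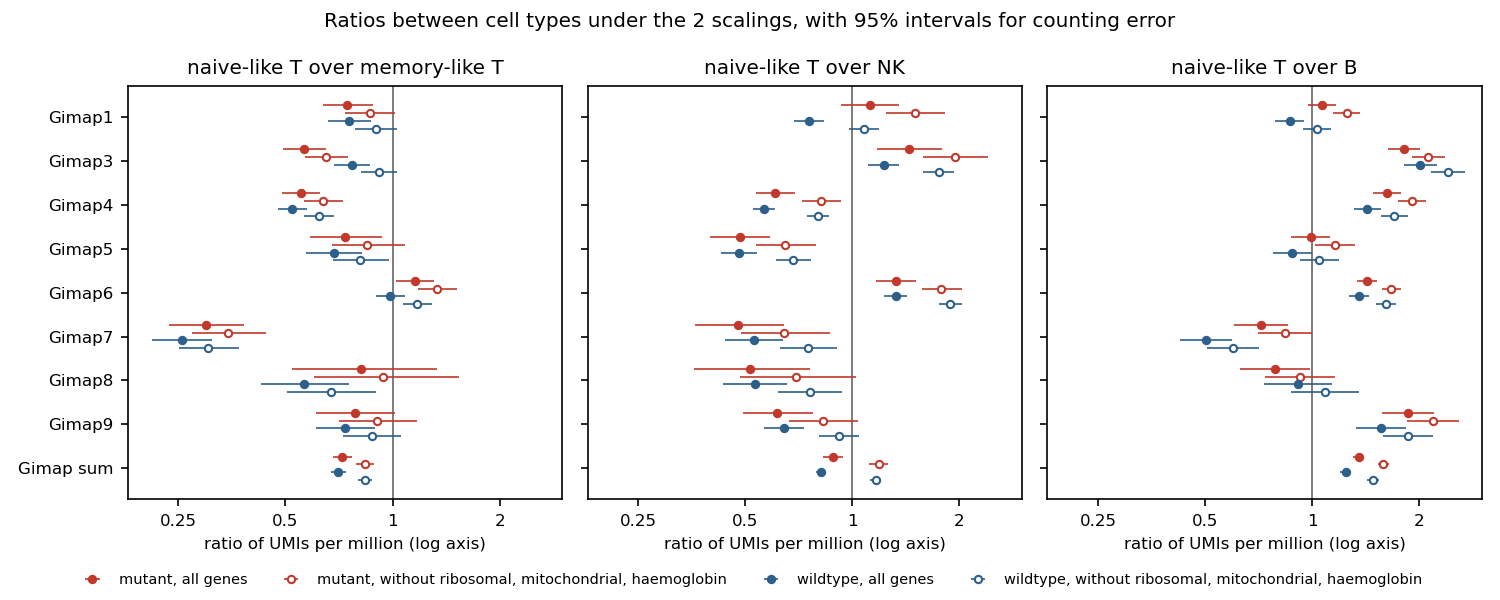
Ratios of CPM in naive-like T cells over memory-like T, NK and B cells (log axes) for each Gimap gene and the family sum, in the mutant (red) and wildtype (blue) library, with all genes in the total (filled) or without ribosomal, mitochondrial and haemoglobin genes (open), with 95% intervals. The family sum over NK cells moves from 0.881 and 0.816 to 1.18 and 1.16, and Gimap7 over memory-like T cells stays between 0.255 and 0.345.

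In monocytes the summed Gimap level was 9.18-fold (7.59 to 11.2) and 7.45-fold (6.10 to 9.18) below naive-like T cells. Free RNA in the droplets has to be set beside this. Barcodes with 1 to 20 UMIs, too few to be a cell, carried 2063 and 2417 CPM of Gimap RNA. The T and NK genes Ccl5, Gzma and Nkg7 put the share of free RNA in monocytes at no more than 12.5% and 12.3%. That share alone would give 259 and 297 Gimap CPM, against the 245 and 294 measured. The interval of the measured level reached down to this amount for 7 of 8 members in the mutant and 8 of 8 in the wildtype library. Gimap6 was higher than it in both, with 116 (86.0 to 152) against 83.8 and 117 (83.1 to 160) against 92.3, and only the mutant interval left the amount out. Wildtype Gimap9 had 21.0 (8.43 to 43.2) against 17.9. Gimap8 had 1 UMI in mutant and 0 in wildtype monocytes. The wildtype count of 0 allows up to 8.99 CPM (3 counts in the summed monocytes), so at that floor Gimap8 was at least 5.54-fold higher in naive-like T cells, while the exact interval of the ratio starts at 4.47. In the mutant library, with 1 UMI, the ratio was 19.3 (3.42 to 766).

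Cell by cell, Gimap RNA was found in most lymphocytes at full depth. At that depth, 8.83% (mutant) and 7.52% (wildtype) of B cells had no Gimap UMI. Of naive-like T cells, 98.0% (mutant) and 98.3% (wildtype) had at least 1 Gimap UMI, with medians of 2095 and 2274 UMIs per cell for all genes. Monocytes, whose Gimap UMIs include an unknown part of free RNA, had 48.2% and 44.4% at medians of 2787 and 2215 UMIs. Free RNA also adds an unknown part to the lymphocyte shares. Its upper bound was 18.9% (mutant) and 11.7% (wildtype) of the UMIs of B cells, and 8.50% and 8.62% in naive-like T cells. To compare types at 1 depth, each cell was thinned to 800 UMIs, and no cell was left out because 800 was also the minimum for a cell. Then 80.3% (78.4 to 82.1) and 79.7% (77.9 to 81.3) of naive-like T cells, 90.4% and 89.0% of memory-like T cells, 83.2% and 87.7% of NK cells and 72.2% and 75.2% of B cells had a Gimap UMI. The thinned share of monocytes was 14.4% (9.02 to 21.3) and 17.1% (10.8 to 25.2), far below each lymphocyte type. Gimap7 was seen in 5.20% and 5.14% of thinned naive-like T cells, in 13.4% (8.47 to 19.7) and 16.1% (11.8 to 21.2) of thinned memory-like T cells, and in 0.719% and 0% of thinned monocytes. The 0 of 117 wildtype monocytes allows a share of up to 3.10% by the exact interval. At full depth the Gimap7 shares were 13.4% and 12.2% of naive-like T, 38.2% and 37.3% of memory-like T, and 2.16% and 1.71% of monocytes.

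**Figure D3:**
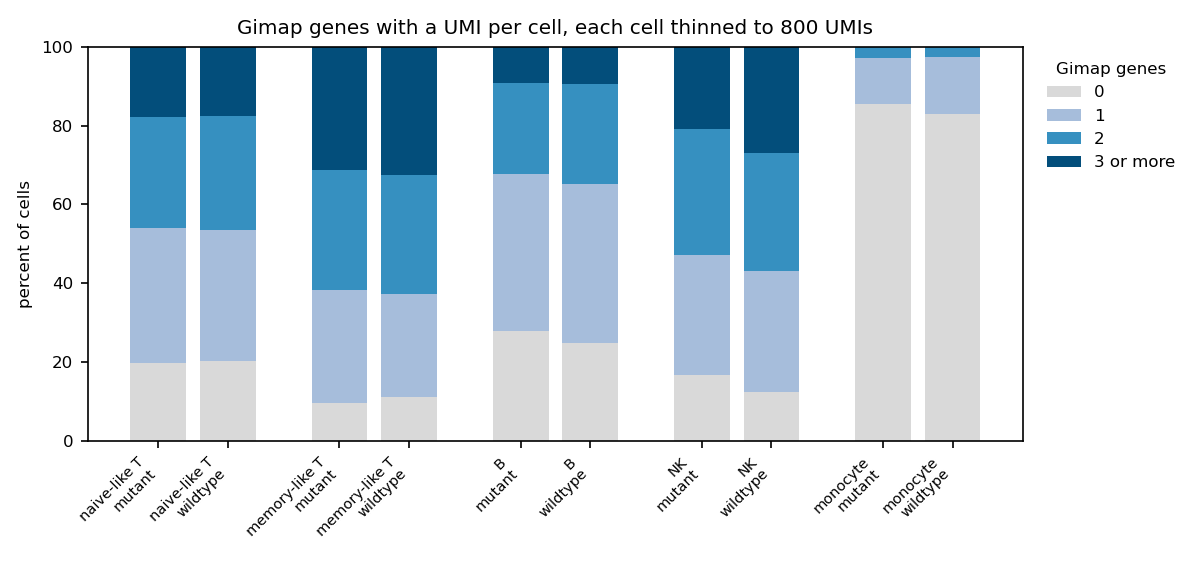
Percent of cells (vertical axis) with a UMI for 0, 1, 2 or at least 3 Gimap genes after each cell was thinned to 800 UMIs, by cell type and library. At least 3 Gimap genes were seen in 31.2% and 32.5% of memory-like T cells, 20.9% and 27.0% of NK cells, 17.7% and 17.4% of naive-like T cells, 9.15% and 9.31% of B cells and 0% of monocytes.

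Within naive-like T cells, those with Cd4 UMIs carried more Gimap RNA than those with Cd8 UMIs. The family sum was 2638 and 2461 CPM in Cd4 cells (235 and 259 cells) and 1863 and 1858 in Cd8 cells (613 and 846 cells), a Cd8-to-Cd4 ratio of 0.706 (0.661 to 0.755) and 0.755 (0.710 to 0.803). Gimap1 (0.581 and 0.709), Gimap3 (0.728 and 0.750), Gimap4 (0.691 and 0.782) and Gimap6 (0.639 and 0.699) were lower in Cd8 cells in both libraries, while the intervals of Gimap5 (0.945 and 1.25) and Gimap7 (1.31 and 1.03) held 1 in both libraries. Gimap8 (0.816 and 0.653) and Gimap9 (0.962 and 0.645) had intervals that left out 1 in the wildtype library, and the difference between libraries was not tested. Cd4 cells had at least 1 Cd4 UMI and 0 Cd8 UMIs, and Cd8 cells at least 2 Cd8 UMIs and 0 Cd4 UMIs. Another 997 and 1074 naive-like T cells met neither rule, so the ratios describe the cells that did. B cells rich in the immature B cell genes Vpreb3 and Cd24a (119 and 76 cells) were split off after the data were seen. These cells had 1411 and 1682 Gimap CPM, against 1701 and 1769 in the other B cells. The ratio was 0.830 (0.752 to 0.913) in the mutant library and 0.951 (0.854 to 1.06) in the wildtype library, where the interval held 1.

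Between the libraries, the Gimap sum differed by less than 1.5-fold within each cell type. The mutant-to-wildtype ratio of the family sum was 1.03 (0.999 to 1.06) in naive-like T, 1.001 (0.933 to 1.07) in memory-like T, 0.945 (0.905 to 0.987) in B, 0.951 (0.889 to 1.02) in NK cells and 0.833 (0.628 to 1.11) in monocytes. Only the B cell interval left out 1. No member was 1.5-fold apart in naive-like T cells, where 4.49% of 7831 measured genes were, in B cells (5.83% of 6881) or in NK cells (13.0% of 4726). In memory-like T cells 1 of 8 was past that fold, with 8.70% of 2872 genes as the background. This was Gimap8, with 22 mutant and 62 wildtype UMIs and a ratio of 0.607 (0.355 to 1.001), and it was 1.04 when each cell was thinned. In monocytes only Gimap6 reached 50 UMIs and it was not past the fold (0.989, 0.639 to 1.54), with 15.5% of 2202 genes as the background. The median log2 ratio of the measured members was 0.03 in naive-like T, -0.07 in memory-like T, -0.08 in B and -0.03 in NK cells, beside 0.02, 0.00, 0.01 and -0.03 over all measured genes.

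**Figure D4:**
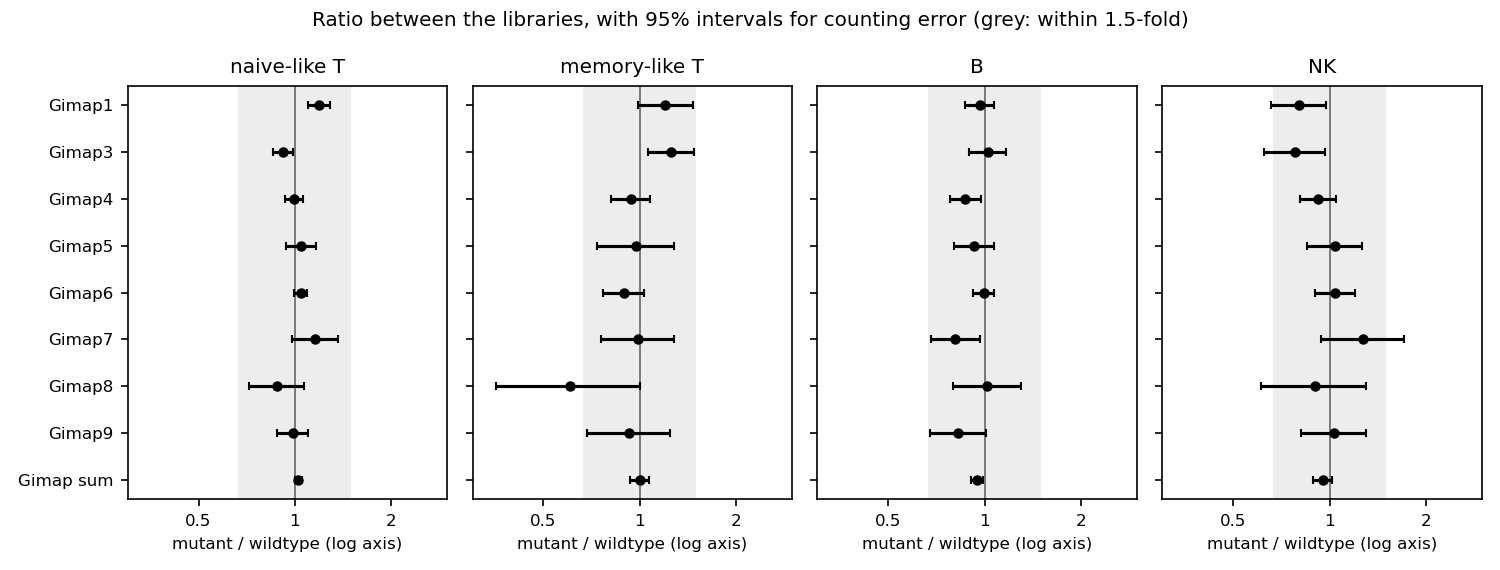
Ratio of CPM in the mutant over the wildtype library (log axes) for each Gimap gene and the family sum in naive-like T, memory-like T, B and NK cells, with 95% intervals for counting error. The grey band is within 1.5-fold, and only Gimap8 in memory-like T cells (0.607) has its point outside it.

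Some intervals left out 1 at smaller sizes: 7 of the 40 pairs of member and type, with no adjustment for their number. Gimap1 in naive-like T cells was 320 (303 to 338) CPM in mutant cells and 269 (255 to 284) in wildtype cells, a ratio of 1.19 (1.10 to 1.28). In the Cd8-rich cluster that both libraries share, Gimap1 had a ratio of 1.05 (0.917 to 1.20), and in the Cd4-rich clusters that split by library it had 1.27 (1.02 to 1.58) and 1.18 (0.873 to 1.56). In the same shared cluster Gimap3 had 0.894 (0.795 to 1.005) and Gimap9 1.27 (1.06 to 1.52), where Gimap9 over all naive-like T cells had 0.986 (0.880 to 1.10). In NK cells Gimap1 was lower in the mutant library, with 287 against 357 and a ratio of 0.803 (0.655 to 0.977). Gimap3 was 336 and 365 in naive-like T cells (ratio 0.920, 0.857 to 0.987), 233 and 298 in NK cells (0.781, 0.622 to 0.971), and 595 and 475 in memory-like T cells (1.25, 1.06 to 1.48). In B cells, Gimap4 (0.871, 0.781 to 0.972) and Gimap7 (0.811, 0.679 to 0.967) were lower. The other 33 intervals held 1, which does not show that those levels were equal.

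Over all cells together the picture was different from that within types. Gimap genes gave 1974 CPM over mutant and 2175 over wildtype cells, a ratio of 0.907 (0.891 to 0.925), with Gimap4 at 0.802 (0.769 to 0.837) and Gimap8 at 0.804 (0.713 to 0.906). NK cells, a type with a high level of Gimap4, were 4.56% of mutant and 16.7% of wildtype cells, and B cells 30.3% and 21.4%. Memory-like T cells, also high in Gimap4, were 3.75% and 4.88%. With the wildtype levels kept and only the types' shares of all UMIs set to those of the mutant library, the family ratio was 0.938 and that of Gimap4 0.884. With the shares kept and only the levels exchanged, these ratios were 0.972 and 0.918. A sum over all cells mixes the shares of the types with the levels within them. The shares here are of UMIs, so they join the number of cells of a type with the UMIs per cell. The levels are CPM and do not measure RNA per cell.

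The 8 members moved together across types: over the 10 sums of 5 types and 2 libraries, the Pearson r between members, on log2 of CPM plus 10, ran from 0.878 (Gimap6 with Gimap7) to 0.990 (Gimap4 with Gimap9). These points share libraries and depth, and the low monocyte values set much of the range. Among 6684 genes with at least 200 UMIs, the non-members with the profile most like the family sum were Sept1 (0.991), Jakmip1 (0.986), Fkbp3 (0.985), Acap1 (0.978), Fam173b (0.978) and Tbc1d10c (0.978). Gimap4 ranked 4th and Gimap1 5th in the same list, and Gimap7 was the member least like the sum, at rank 58. The sum holds each member's own UMIs, so the ranks of members are not independent of it.

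Genes of pathways in which GIMAP proteins have been placed were read in naive-like T cells. Of 12 genes for autophagy and partners of Gimap5 or Gimap6, 11 were measured, with a median log2 ratio of -0.03. Of these, 0 were 1.5-fold apart between the libraries, where 4.49% of 7831 measured genes were. Gabarapl2, the partner of Gimap6, had 202 and 176 CPM (ratio 1.15, 1.05 to 1.27), and it was at least 1.5-fold lower in naive-like than in memory-like T cells in both libraries, as was Cers4. These were 2 of the 10 genes of the list measured in that comparison, beside 9.79% of all measured genes. Cers4 had only 10 mutant UMIs in memory-like T cells. The total without ribosomal, mitochondrial and haemoglobin genes raises naive-to-memory ratios by 0.21 and 0.25 on the log2 scale. With it, neither gene would be 1.5-fold lower in the mutant library. Of 8 Bcl2 family genes, which set the threshold for cell death, 8 were measured and 0 were past the fold. Bax had 166 and 156 CPM and Bid 9.18 and 12.1. Of 12 genes for the upkeep of naive T cells, 0 were past the fold between libraries. With 4.49% of all measured genes past it, a count of 0 in lists this short does not set them apart. Txnip was at 1.27 (1.19 to 1.36) and Klf2, which controls exit from lymphoid organs, at 0.934 (0.911 to 0.958). A list of 10 genes was drawn up as neighbours of the Gimap stretch, and their positions were not checked. Of these, only Zfp467 (8.69 and 6.22) and Zfp775 (6.21 and 8.56) were measured in naive-like T cells. Tmem176a and Tmem176b, listed neighbours that encode membrane proteins, were highest where Gimap genes were lowest. In monocytes Tmem176a had 256 and 114 CPM and Tmem176b 378 and 213, both past 1.5-fold between the libraries, as were 15.5% of all measured genes in monocytes. Markers of other cells also differed in these monocyte sums, with 659 and 195 CPM of conventional dendritic cell genes, 5310 and 653 of platelet genes and 304 and 2835 of neutrophil genes, and their part was not tested. In B cells Tmem176b had 10.7 and 9.79. Lrrc61 had 10.3 and 14.7 in B cells.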

How the data were processed

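UMI counts were the unit throughout: the deposited matrices held whole-number counts for 27998 genes and all 737280 possible barcodes, and per the submitters' processing notes the reads were counted with Cell Ranger 2.1.1 on mm10. Cells needed at least 800 UMIs and 200 genes and at most 10% mitochondrial UMIs. A cell took a type with at least 3 UMIs of its marker set and more than 2 times those of each other set. T cells were naive-like or memory-like with at least 2 UMIs and 2 times the other set. UMIs were summed per type and library and given as CPM of that sum. Ratios carry exact conditional (Clopper-Pearson) intervals, levels exact Poisson and shares Clopper-Pearson intervals at 95%, which cover counting error. The ratio intervals were run on simulated Poisson counts. Such counts meet the assumption of the intervals and hold no variation between cells or pools. Thinning was seeded. The members, gene lists and markers were chosen with earlier results of these data known. Named were all members, the 6 most like genes, up to 4 genes per list with the largest ratio in naive-like T cells, measured neighbours and Mvk, and any other gene named was chosen after its values were seen. Scipy 1.17.1 and scanpy 1.11.5 were used. Doublets were scored with Scrublet and kept in the main values. The comparison of the naive T cell upkeep genes between T cell states is not reported here.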

Additional observations from a re-analysis of the deposited data

Results flagged for a closer look

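Gimap1 and Gimap3 had intervals off 1 in opposite directions in different cell types, and the difference between the types was not tested. Gimap1 had a mutant-to-wildtype ratio of 1.19 in naive-like T cells and 0.803 in NK cells. Gimap3 had 1.25 in memory-like T cells, 0.920 in naive-like T cells and 0.781 in NK cells. Erythroid RNA was higher in the mutant library in each of these types, and its part in the ratios was not tested.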

How the results depend on the processing

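No paired analysis was possible because each genotype has 1 library, and no library could be left out for the same reason. The alternatives for the ratios were stricter cells (at least 1200 UMIs), stricter markers, a split of T cells with no margin, cluster-based types, thinning, removal of cells with a Scrublet score above 0.2, subtraction of free RNA, and a total without ribosomal, mitochondrial and haemoglobin genes. The mutant-to-wildtype ratio of the Gimap sum stayed between 0.987 and 1.05 in naive-like T, 0.983 and 1.06 in memory-like T, 0.939 and 0.952 in B, 0.881 and 0.989 in NK cells and 0.777 and 0.988 in monocytes, where subtraction of free RNA gave no value. Thinning moved it outside its interval in NK cells (0.881) and naive-like T cells (0.987). In the cluster most evenly shared by the libraries, an alternative added after the data were seen, the naive-like T ratio of the sum was 1.04. The 7 member ratios off 1 kept their direction under each alternative run, with Gimap1 in naive-like T cells between 1.05 and 1.27.

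Ratios between types depended on the total. Without ribosomal, mitochondrial and haemoglobin genes the naive-to-NK ratio of the sum reversed to 1.18 (mutant) and 1.16 (wildtype), and the other sums moved to 1.58 and 1.48 over B, 0.836 and 0.838 over memory-like T cells, and 12.7 and 10.3 over monocytes. Among member ratios whose interval had left out 1, the same total reversed 3, all wildtype: Gimap1 over B (1.03) and over NK cells (1.07) and Gimap5 over B cells (1.05). It also moved 3 ratios whose interval had held 1 to the other side of 1: wildtype Gimap8 over B (1.08), wildtype Gimap6 over memory-like T (1.17) and mutant Gimap5 over B cells (1.16). Cluster-based types moved the sum over memory-like T cells to 0.778 and 0.803 and over mutant monocytes to 7.48, and reversed wildtype Gimap1 over memory-like T cells (1.04). Thinning moved the sum to 0.681 over mutant memory-like T and 1.32 over wildtype B cells, the looser split to 0.749 over wildtype memory-like T cells, and subtraction of free RNA to 1.44 and 1.29 over B cells. The direction of the naive-to-other sums was otherwise kept under the alternatives run, and the cause of the shifts was not tested. With no minimum of 50 UMIs the genes 1.5-fold apart rose to 2324 in naive-like T, 3454 in memory-like T, 2465 in B, 3381 in NK cells and 3964 in monocytes, since scarce genes then entered. With a pseudocount of 50, 5 of the 6 most like genes were kept. Scarce members, such as Gimap8 in memory-like T cells, are limited by counting error.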
